A study of Mus musculus with 36 samples.

Results

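The region of mouse chromosome 5 that holds Shh and its distant limb enhancer, the ZRS, was followed through 18 H3K27ac peak lists of forelimbs at embryonic day 11.5. The members were all peaks that overlapped a window of 1.05 Mb on the mm9 build, from 28.70 to 29.75 Mb, and 76 of the 732259 peaks in the 18 lists did. H3K27ac, acetylation of lysine 27 of histone H3, marks active enhancers and promoters, and ChIP-seq sequences the DNA that an antibody to the mark pulls down. The knockout (KO) groups were embryos null for 1 limb enhancer each, with 4 libraries of mm1179 and 2 each of hs72, hs1262, hs1467, hs1586 and hs1603. They were set against 4 libraries of wild-type (WT) embryos. All groups were FVB mice at the same stage, untreated, and each library was made from forelimbs pooled over embryos, whose number the labels do not give. The labels do not say how the deletions were made or whether a line traces to 1 founder. None of the 6 knocked-out elements is labelled as the ZRS, and the labels name no other altered allele in any group.

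Shh encodes Sonic hedgehog, the secreted signal made by the zone of polarizing activity, a small group of cells at the posterior margin of the limb bud, where it sets the number and identity of digits. Its limb expression depends on the ZRS, an enhancer that lies far from Shh, inside an intron of Lmbr1, a gene for a membrane protein that hosts the enhancer without being known as its target. Hedgehog signalling acts in the limb bud against the repressor Gli3, and mm1179 and hs1586 are known as limb enhancers of Gli3. Since whole forelimbs were pooled, a weak or missing peak in these lists cannot tell apart a mark present in few cells and a low level of the mark per cell.

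Of the 2 genes, Lmbr1 was found in the RefSeq promoter table, which is of GRCm38.p6. Its promoter, the 250 bases before the start on the minus strand of chr5:29378391-29378640 in that build, is shown because Lmbr1 is the gene that holds the ZRS. Capitals mark the GC box, searched as GGGCGG on both strands, which reads CCGCCC where it lies on the other strand.

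Lmbr1: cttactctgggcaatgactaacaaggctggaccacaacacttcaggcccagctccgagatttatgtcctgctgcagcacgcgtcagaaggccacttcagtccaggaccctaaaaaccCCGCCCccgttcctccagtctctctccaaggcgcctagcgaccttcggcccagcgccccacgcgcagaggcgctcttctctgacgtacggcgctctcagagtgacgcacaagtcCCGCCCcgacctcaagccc

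The Lmbr1 promoter held 2 GC boxes, both on the reverse strand, 18 CpG dinucleotides and a GC content of 62.0%. Among the 32851 promoters of that table, 32.74% held the motif, the median GC content was 52.4% and the median CpG count was 6, with 78.33% holding fewer CpG than Lmbr1. The peak lists are on mm9, so no peak was placed on this promoter and nothing about a bound factor was read from the motif. In the order of genes on GRCm38, Rbm33 and Shh stand side by side, and Rnf32 is the protein-coding gene between Shh and Lmbr1, with Nom1 and Mnx1 following.

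The deposited lists held 26550 to 58753 peaks and covered 62.64 to 166.0 Mb, and since they hold no read counts, the depth behind a call is unknown. A tag in the list names, which the labels do not explain, divided the libraries into 4 batches. Batch 1 held replicates 1 and 2 of mm1179 KO and WT. Batch 2 held both hs72 KO libraries with replicates 3 and 4 of mm1179 KO and WT. Batch 3 held replicate 1 and batch 4 replicate 2 of hs1262, hs1467, hs1586 and hs1603 KO, so each of the 2 batches holds all 4 of these lines, and within a line the replicate cannot be told apart from the batch. No WT library is in batch 3 or 4, so a difference of these lines from WT cannot be told apart from the batch either. The lists of batch 3 were short, 26550 to 32472 peaks, and those of batch 4 were long, 54375 to 58753 peaks. The strength of a peak is given as the percentile of the authors' score within its own list, so that 50% is the middle of that list. Lists of unlike length rank a peak among unlike sets of peaks, so percentiles of different batches need not be on a common scale.

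**Figure D1:**
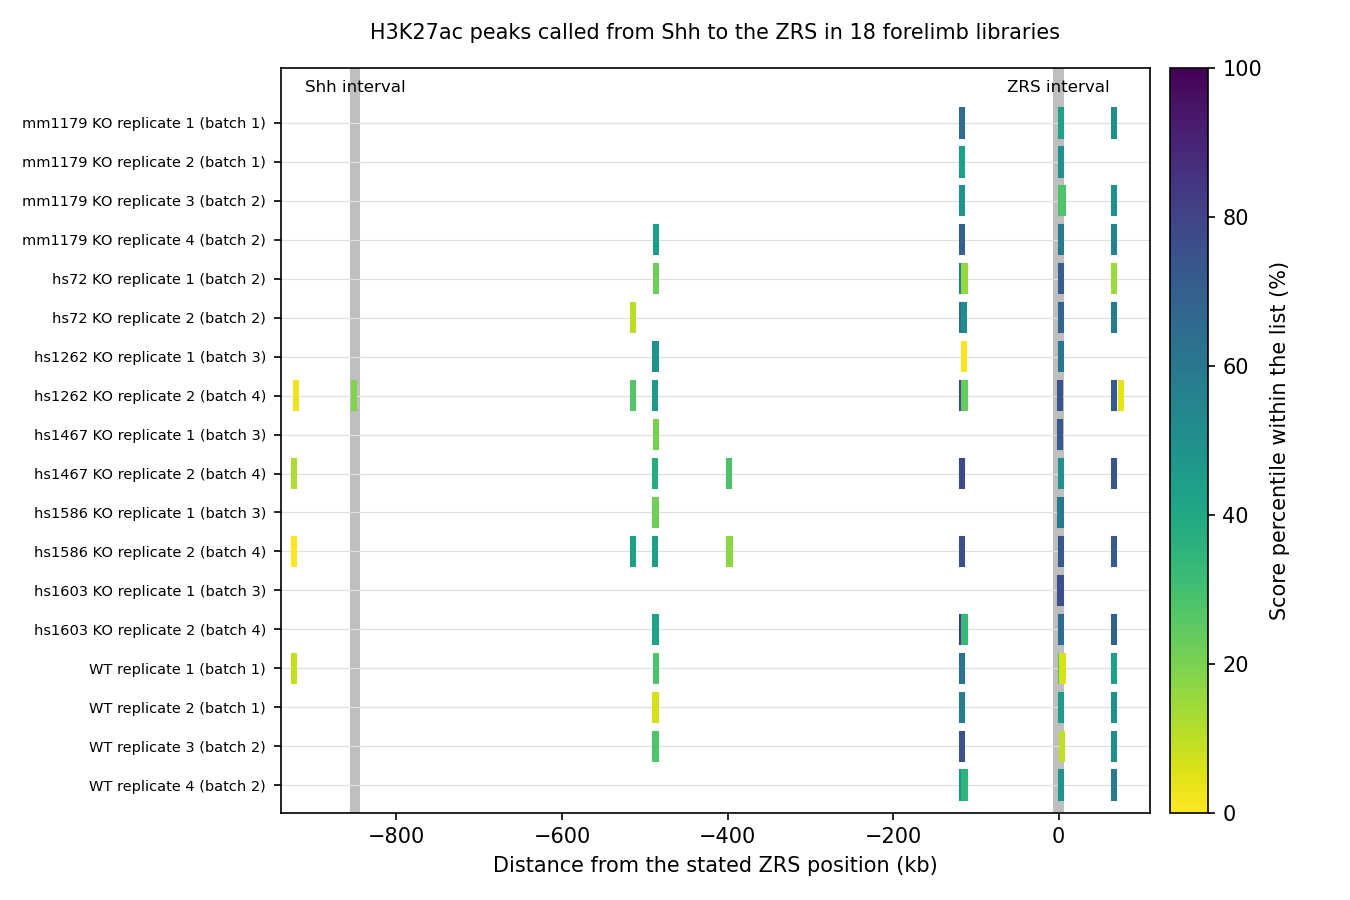
Peaks of each library (rows, with the batch in brackets) by distance in kb from the stated ZRS position, coloured by score percentile within the list in %, with grey bands for the 10 kb Shh and ZRS intervals. Peaks are drawn at least 5 kb wide so that they can be seen, and neighbouring peaks overlie each other. Every library has a peak at the ZRS, and hs1262 KO replicate 2 alone has one in the Shh interval.

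The window was sparsely marked. It held 1 to 9 peaks per library, and these covered between 0.403% and 1.877% of its length. The mm1179 KO libraries had 3, 2, 4 and 4 peaks, covering 4.66, 4.23, 6.62 and 9.50 kb, and the WT libraries had 6, 4, 4 and 4 peaks, covering 8.17, 6.90, 7.05 and 8.01 kb. The hs72 KO libraries had 5 peaks each, over 8.21 and 10.39 kb. The 4 libraries of batch 3 had 1 to 3 peaks over 4.48 to 7.32 kb, and the 4 of batch 4 had 5 to 9 peaks over 11.53 to 19.70 kb. Within hs1262, hs1467, hs1586 and hs1603 KO the replicate of batch 4 thus had more peaks than that of batch 3 in each line, as it did over the whole lists. Set against 2500 stretches of the same length across the genome, the window was covered less than most in every library, with 24.5% to 34.2% of stretches covered less than it was. Stretches that peaks of at least 2 libraries covered are called regions here, and the window held 7 of the 63594 in the genome.

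At Shh itself almost no peak was called. The Shh interval, 10 kb from 28785001 to 28795000, overlapped a peak in 1 of the 18 libraries and in 0 of the 4 mm1179 KO, 0 of the 2 hs72 KO and 0 of the 4 WT libraries. That peak, in hs1262 KO replicate 2, ran from 28785843 to 28787550, was 1708 bp wide and scored 68.0, at the 18.99% percentile of the longest of the 18 lists. The other hs1262 KO library, of batch 3, had no peak there. A missing peak is a call that was not made, and does not show that the mark was absent. The count was 0 with a minimum score of 100 and 0 with lists cut to equal length.

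The surroundings of Shh were as sparse. The nearest region called in all 4 WT libraries lay 110.1 kb below the stated Shh position, outside the window, at 28677391 to 28679905, and was called in 16 libraries. On the side of the ZRS the nearest such region lay 730.8 kb away. Regions called in at least 2 libraries came nearer, at 74.9 kb below and 333.1 kb above. The region below Shh, 28713835 to 28715145, was called by hs1467 KO replicate 2, hs1586 KO replicate 2 and WT replicate 1, at percentiles of 12.6%, 0.168% and 8.77%. It thus ranked near the bottom of all 3 lists. A stretch of 335.3 kb that contains the stated Shh position, from 28787551 to 29122847, held no peak of any library.

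At the ZRS all 18 libraries called a peak. The region ran from 29639670 to 29644226, 4557 bp in mm9, and was the 1 region of the window's 7 that every library called, against 16.5% of the regions of the genome. Its score percentile averaged 54.5% over the 18 libraries, below the median of 74.3% over the 10497 regions called in all 18 and above the median of 32.3% over all regions. Among the regions that every library called, 12.7% averaged lower. In the WT libraries taken alone it averaged 33.3%, below the median of 37.2% over all regions with a WT call and of 66.6% over the regions called in all 4 WT libraries. With a minimum score of 100, 15 of the 18 libraries called it, and WT replicates 1 and 3 and mm1179 KO replicate 3 did not. With lists of equal length 15 did, and WT replicate 3, mm1179 KO replicate 3 and hs1467 KO replicate 2 did not.

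The strength of the ZRS peak differed between libraries more than its presence. In mm1179 KO its percentile was 42.9%, 49.8%, 28.3% and 59.1%, and in WT it was 29.2%, 45.5%, 9.61% and 48.8%, so the groups overlapped. The means were 45.0% ± 13.0 in mm1179 KO and 33.3% ± 17.96 in WT (SD, n = 4 each), and an exact two-sided permutation test, added after seeing the data, gave p = 0.371. Within batch 1 the means were 46.4% in mm1179 KO and 37.4% in WT, and within batch 2 they were 43.7% in mm1179 KO and 29.2% in WT. In hs72 KO the percentile was 70.3% and 67.2%, against 9.61% and 48.8% in the WT libraries of the same batch. Both hs72 KO libraries were therefore higher than both WT libraries there, an order that 15.4% of the 24982 regions called in all 4 also showed.

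The mean percentile in batch 2 was 68.8% ± 2.15 in hs72 KO and 29.2% ± 27.7 in WT (SD, n = 2 each), a difference of 39.5 percentage points. Like the mm1179 test of percentiles, this comparison was added after seeing the data. Of the same regions, 0.136% had a difference at least as large. Without WT replicate 3, the lowest of all libraries at the ZRS, the difference was 19.9 points, which 3.95% of regions reached. No test was made, because 2 libraries against 2 cannot give an exact p below 0.333. The remaining 8 libraries stood at 60.6%, 72.0%, 59.6% and 76.2% in replicate 1 of hs1262, hs1467, hs1586 and hs1603 KO (batch 3) and at 73.7%, 50.7%, 72.8% and 65.5% in replicate 2 (batch 4). All 10 libraries of these 5 lines thus lay above all 4 WT libraries, an order noticed in the data and shared by 2.7% of the regions that every library called. For the 8 libraries of batches 3 and 4 a difference from WT cannot be told apart from the batch.

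**Figure D2:**
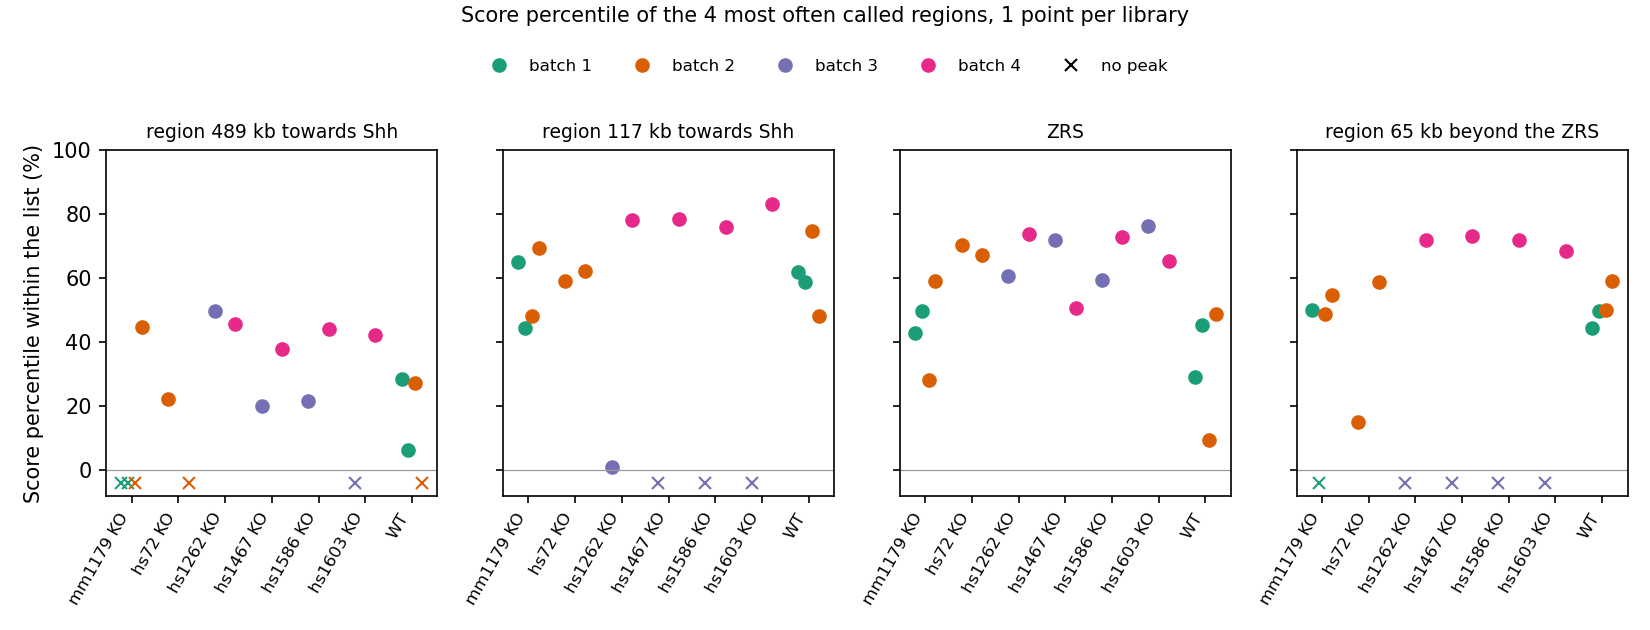
Score percentile within the list (%) of the 4 regions called in most libraries, by group, with 1 point per library coloured by batch and a cross below 0 where no peak was called. At the ZRS the WT points lie between 9.61% and 48.8%, below those of hs72, hs1262, hs1467, hs1586 and hs1603 KO. The nearest region on either side has few or no points of batch 3, and the region 488.6 kb from the ZRS has 3.

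The extent of the ZRS peak also varied. The covered length was 1271, 2708, 3402 and 3478 bp in mm1179 KO and 2394, 2167, 1280 and 3259 bp in WT. It was 3232 and 3286 bp in hs72 KO, 3321 to 4481 bp in batch 3 and 3388 to 4752 bp in batch 4. The peaks of the whole lists averaged 2591.5 to 3374.0 bp in batches 3 and 4 and 2039.1 to 2568.1 bp in batches 1 and 2. The length at the ZRS averaged 2135 and 2990 bp in batches 1 and 2, and 3920 and 4060 bp in batches 3 and 4. The batches with wider peaks thus had the longer calls there. Some libraries departed from this, and the part of peak width was not tested. In hs1262 KO the ZRS covered 4752 bp in replicate 2, whose list averaged 2825.9 bp, and 3321 bp in replicate 1, whose list averaged 3310.3 bp. In mm1179 KO replicate 2, the list with the lowest average, it covered 2708 bp. Ranked by width within its own list, the ZRS peak stood at percentiles of 19.6% to 90.9%.

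Along the ZRS region the calls formed 2 segments that were covered most often. The segment nearer to Shh, 29640791 to 29641992, was covered whole in 17 libraries, all but WT replicate 3. The other, 29642404 to 29643265, was covered whole in 16, all but mm1179 KO replicate 1 and WT replicate 2. The stretch from 29640459 to 29643493 had at least 14 libraries at every base, so the dip between the segments was shallow. In mm1179 KO replicate 3 and in WT replicate 1 it parted the call into 2 peaks. WT replicate 3, whose single peak ran from 29642214 to 29643493, covered the segment farther from Shh, and mm1179 KO replicate 1, with 29640722 to 29641992, the nearer.

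**Figure D3:**
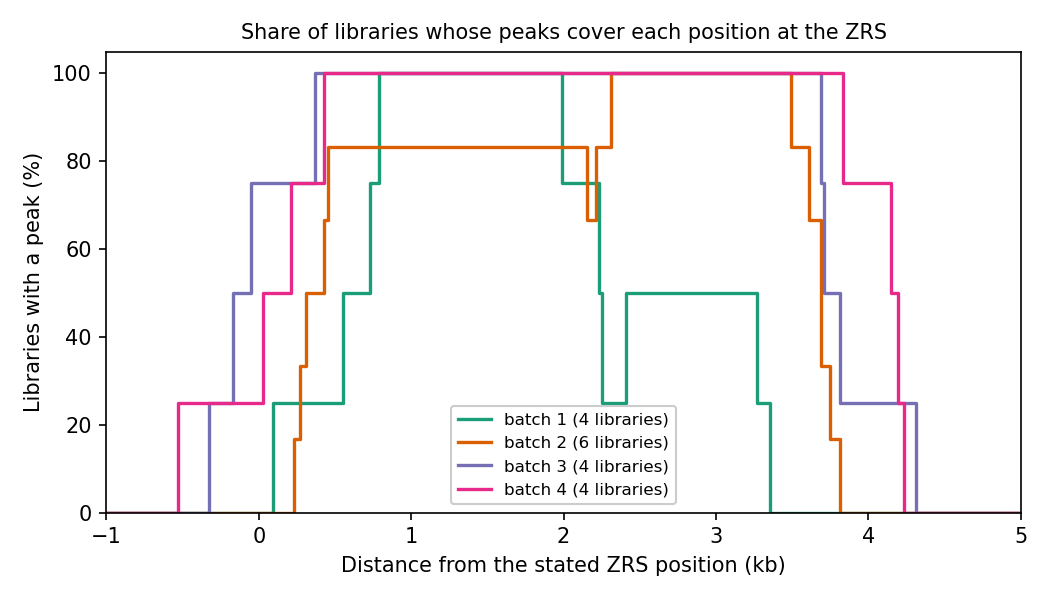
Percentage of the libraries of each batch whose peaks cover a position, by distance in kb from the stated ZRS position. All 4 libraries of batch 3 and all 4 of batch 4 span both segments. In batch 1 (mm1179 KO and WT) the segment farther from Shh is covered in fewer libraries than the nearer. Batch 2, which holds mm1179 KO and WT with hs72 KO, goes the other way, with 5 of 6 libraries on the nearer segment and 6 on the farther.

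Between Shh and the ZRS the peaks lay in 4 regions, of which the strongest stood 116.8 kb from the ZRS. This region, 29520840 to 29525605, was called in 15 libraries, including 4 of 4 mm1179 KO, 2 of 2 hs72 KO and 4 of 4 WT. It and the ZRS were the 2 regions of 7 called in all 14 libraries outside batch 3, against 29.9% of the genome's regions. In batch 3 just hs1262 KO replicate 1 called it, at the 1.13% percentile. None of the window's 7 regions was called in all 14 other libraries and missed in the whole of batch 3, which 7.03% of the genome's regions were.

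That region was made of neighbouring peaks, which were divided after seeing the lists. The peak nearer to Shh was called in 14 libraries, 0 of them in batch 3, at percentiles of 44.4% to 83.3% with a median of 63.6%. It stood at 65.0%, 44.4%, 48.3% and 69.5% in mm1179 KO and at 62.1%, 58.7%, 74.9% and 48.3% in WT, overlapping ranges. In hs72 KO it stood at 59.3% and 62.3%, within the WT range. In batch 4 its percentile was higher than in any other library, at 78.2%, 78.5%, 76.1% and 83.3% in hs1262, hs1467, hs1586 and hs1603 KO. The lists of batch 4 were also the longest, and the part of list length in these percentiles was not tested. The peak nearer to the ZRS was called in 6 libraries, at 1.13% to 52.1% with a median of 28.4%, and the call of hs1262 KO replicate 1 was of this peak. WT replicate 4 was the WT library that called it, at 34.9%.

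Which region of the window ranked highest differed between libraries. The region 116.8 kb away had the highest percentile of the window in 9 libraries and the ZRS in 7. The ZRS led in all 4 libraries of batch 3, where its neighbours were mostly not called, in both hs72 KO libraries and in mm1179 KO replicate 2. It led in 0 of the 4 WT libraries. In WT replicate 3 the gap was widest, with the ZRS 65.2 percentage points below that region.

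The other regions between the genes were weaker. The region 488.6 kb from the ZRS, 29150367 to 29152427, was called in 12 libraries, 1 of 4 mm1179 KO and 3 of 4 WT. Fisher's exact test of the calls gave p = 0.486. Its percentile was 44.7% in mm1179 KO replicate 4 and 28.5%, 6.31% and 27.4% in the 3 WT libraries that called it, and over all 12 it averaged 32.6%. The region 516.1 kb from the ZRS, 29123066 to 29124807, was called in hs72 KO replicate 2 at 10.2%, in hs1262 KO replicate 2 at 26.9% and in hs1586 KO replicate 2 at 43.2%. The region 399.4 kb away, 29239839 to 29241322, was called in hs1467 KO replicate 2 at 28.2% and in hs1586 KO replicate 2 at 17.2%. It was the 1 region of 7 called in batch 4 alone, and 7.66% of the genome's regions were. Neither of these 2 regions was called in an mm1179 KO or a WT library. Long stretches without any peak separated the regions, including 279.1 kb from 29241615 to 29520752 and 113.7 kb from 29525734 to 29639474. The second of these ends at the ZRS.

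Beyond the ZRS, on the side away from Shh, a region 65.2 kb off at 29704181 to 29706318 was called in 13 libraries. It was called in 3 of 4 mm1179 KO, at 50.02%, 48.9% and 54.8% with no call in replicate 2, and in 4 of 4 WT libraries, at 44.5%, 49.7%, 50.01% and 59.3%. The hs72 KO libraries stood at 15.2% and 58.7%. Batch 3 called it in 0 of 4 libraries and batch 4 in 4 of 4, at 68.6% to 73.3%. It was the strongest region of the window in mm1179 KO replicate 3 and WT replicate 4. A further peak from 29713506 to 29714902 was called in hs1262 KO replicate 2 alone, at 4.10%, as was one from 28716308 to 28717609 at 2.66%.

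Whether the loss of mm1179 changed the covered length was tested by exact two-sided permutation of the 8 libraries. In the whole window it was 6.25 ± 2.40 kb in mm1179 KO and 7.53 ± 0.650 kb in WT (SD, n = 4 each), a difference of -1.28 kb (exact p = 0.314, adjusted over 4 values 0.610). The difference was -3.09 kb within batch 1 and 0.533 kb within batch 2. Between the intervals the length was 2.38 ± 1.36 kb in mm1179 KO and 3.35 ± 0.558 kb in WT, a difference of -0.975 kb (exact p = 0.200, adjusted 0.610), with -1.27 kb within batch 1 and -0.677 kb within batch 2. With labels exchanged within batches alone, the exact permutation p was 0.278 in the window and 0.222 between the intervals. Neither difference passed the test with all libraries, and the direction turned to 0.083 kb in the window with a minimum score of 100 and to 0.052 kb between the intervals with lists of equal length. Replicate 4 of mm1179 KO had 4.40 kb between the intervals, against 1.52 to 2.00 kb in the other 3. Without it the differences were -2.36 kb in the window and -1.65 kb between the intervals. Each exact p was then 0.0286, the smallest that 3 libraries against 4 can give. That value is not adjusted over the 4 values, so it does not show that either difference passed the adjusted test. This setting leaves replicates 1 and 2 of mm1179 KO in batch 1 and replicate 3 in batch 2. Leaving out any other library gave exact p of 0.314 to 0.657 in the window and 0.200 to 0.429 between the intervals.

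At the ZRS the covered length was 2.72 ± 1.02 kb in mm1179 KO and 2.28 ± 0.813 kb in WT, a difference of 0.440 kb that did not pass the test (exact p = 0.457, adjusted 0.610). It was -0.291 kb within batch 1 and 1.17 kb within batch 2. With labels exchanged within batches alone, the exact permutation p was 0.556. In the Shh interval both groups had 0 kb. By calls, 0 of the 5 regions of the window that either group called passed Fisher's exact test after Benjamini-Hochberg adjustment, as did 0.0% of the 54583 regions of the genome. With 4 libraries against 4 no region can pass it. Of the 5, 0 had an unadjusted p under 0.05, and 61 of the genome's did. None of the 5 was called in all libraries of one group and none of the other, as 0.112% of the genome's were. For hs72 KO and the WT libraries of batch 2, given without a test, the mean covered length was 9.30 against 7.53 kb in the window, 3.26 against 2.27 kb at the ZRS and 4.59 against 3.67 kb between the intervals.

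**Figure D4:**
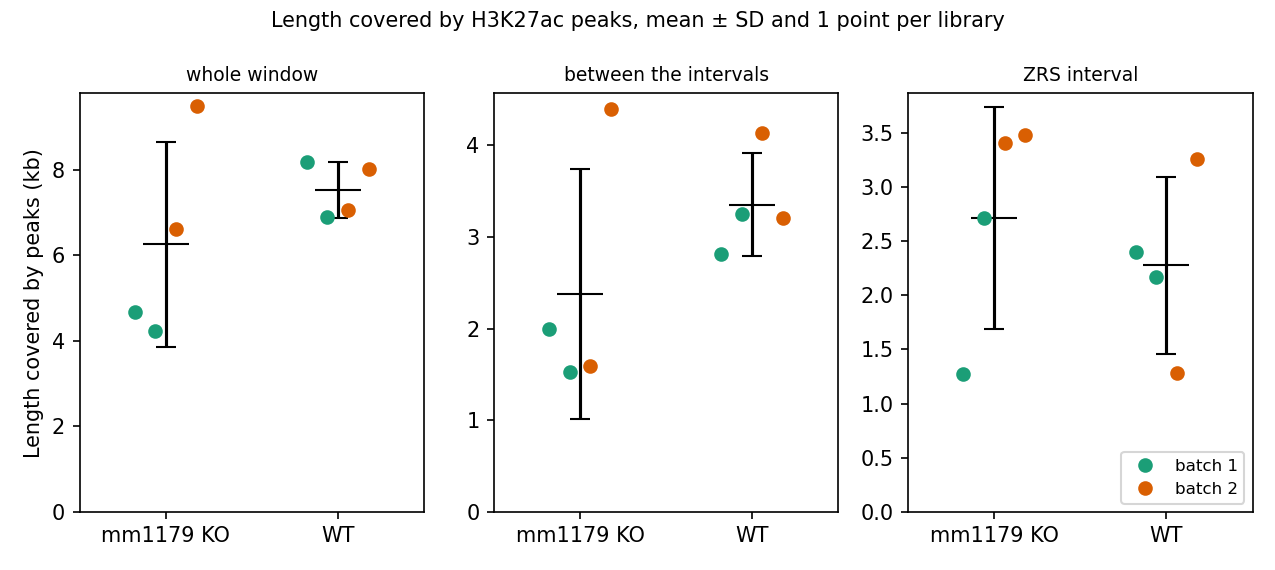
Length covered by peaks in kb in mm1179 KO (left) and WT (right), as mean ± SD of 4 libraries with 1 point per library coloured by batch, for the whole window, the stretch between the Shh and ZRS intervals, and the ZRS interval. The mm1179 KO points spread more widely than the WT points in the window and between the intervals, and replicate 4 of mm1179 KO is the highest of the 8 in both.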

How the data were processed

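H3K27ac ChIP-seq peak lists of 18 mouse forelimb libraries were used, and 18 input samples were not used here. Per the submitters' processing notes the build was mm9, MACS 1.4.2 and Bowtie 0.12.8 were among the tools, and cutadapt 1.1, bcl2fastq 2.17 and CASAVA were the others. Whether inputs served as controls is not given in the sources used here. The deposited score per peak, from 40 to 3233, is the authors' own, and was used to filter peaks or rank them within a list (midrank percentile). The window was chr5 28700000 to 29750000, and the Shh and ZRS intervals reached 5 kb either side of the stated positions of 28.79 and 29.64 Mb. No mm9 annotation was at hand, so no gene was assigned to a peak and the other Hedgehog genes planned were not analysed.

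A region was a stretch where peaks of 2 or more libraries overlapped, called where a peak overlapped by at least 1 bp. Libraries were compared by exact permutation of 70 arrangements, adjusted by Benjamini-Hochberg over 4 values. Replicates are pooled tissue, so p-values measure the spread between libraries, which may be technical. No lists were identical. Alternatives were a minimum score of 100, lists cut to the 26550 best peaks, an overlap of 500 bp, intervals of 2.5 or 10 kb either side, covered length as a share of the list, regions of 1 library, the replicate number as a block, exchange within batches and leaving out each library. Leaving out batch 3 or 4 was added after seeing the data. Named regions were those at the intervals and up to 10 others called most often. Members and lists were chosen with earlier results of these data known. The procedures were tested on simulated data. Python 3.11.15, numpy 2.4.6, pandas 2.3.3, scipy 1.17.1 and matplotlib 3.10.9 were used, and coordinates are 1-based.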

Additional observations from a re-analysis of the deposited data

Results flagged for a closer look

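Each measure of the window was searched for a library far from the other 3 of its group, in the mm1179 KO and WT groups. Of 16 such groups and measures 4 stood out. Chance flags about 1 in 20 where values are continuous. Covered lengths and peak counts change by whole peaks, so that rate need not hold for any of these cases. In both WT cases below the other 3 WT libraries were tied, and any differing value would stand out. In mm1179 KO, replicate 4 had 4.396 kb covered between the Shh and ZRS intervals, against 1.52 to 2.00 kb in the other 3. It was the mm1179 KO library with most peaks in its list, 45267, and the 1 that called the region 488.6 kb from the ZRS. Replicate 2 of mm1179 KO had 0.0 kb beyond the ZRS, where no peak was called, against 1.39 to 1.62 kb in the other 3. Its list was the shortest of the group, at 30719 peaks. In WT, replicate 1 had 1.37 kb below Shh, where the other 3 had 0 kb, and 6 peaks in the window, where the other 3 had 4 each. The peak below Shh is 1 of these 6, so the values are not independent. The part of list length in these values was not tested.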

How the results depend on the processing

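Of 120 alternative values, 108 led to the same call, 8 counts moved, 2 differences reversed and 2 had an unadjusted exact p under 0.05. A difference was the same while its sign held and its exact p stayed above 0.05. Modest changes of a count were taken as the same, such as 18 to 15 libraries at the ZRS and 7 to 10 regions. In the Shh interval neither group had a peak, so dropping peaks or libraries could not change its difference of 0 kb. The mm1179 KO minus WT covered length was 0.083 kb in the window with a minimum score of 100 (exact p = 0.971) and 0.052 kb between the intervals with equal lists (exact p = 0.971). The cause was not tested. Leaving out 1 library at a time, it ranged from -2.358 to -0.603 kb in the window, from -1.647 to -0.690 kb between the intervals and from 0.108 to 0.921 kb at the ZRS, and was 0 kb at Shh. Over all alternatives the exact p ranged from 0.0286 to 1 in the window, from 0.0286 to 0.971 between the intervals and from 0.143 to 0.886 at the ZRS.

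The number of libraries calling Shh was 0 with a minimum score of 100, with equal lists and without batch 4. The number of regions called in all libraries was 0 with a minimum score of 100, 0 with equal lists and 2 without batch 3. The window held 4 regions with equal lists and 4 without batch 4, and 6 to 8 without any 1 library.

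Same-numbered mm1179 KO and WT libraries had r of 0.0139 to 0.0953, and differently numbered ones of the same batch 0.0256 to 0.0949. Pairs across batches had r of -0.09495 to -0.01946. No pairing by number beyond the batch was thus seen, which does not show how the libraries were processed. With the replicate block the differences were -1.277 kb in the window, 0.440 kb at the ZRS and -0.975 kb between the intervals (exact p = 0.375, 0.625 and 0.375). Depth is unknown, which limits any reading of a missing peak.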
